A study of Mus musculus with 6 samples.

Results

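Cytosolic ribosomal proteins are the protein components of the 40S and 60S subunits of the ribosome. Their genes were followed here by RNA sequencing in mouse dendritic cells with and without a Cre transgene directed at Hif2a, the gene for the transcription factor HIF-2α. Members were the rows of the count table whose symbol is Rpl or Rps followed by a number and at most an ending of a, l, x or l1, together with Rplp0, Rplp1, Rplp2 and Rpsa. Rows whose symbol marks a pseudogene with -ps and the Rps6k kinases were left out. The rule took 84 of 30587 rows, and 81 of the 84 had enough reads to be among the 13249 rows tested. The 3 members left untested were Rpl24, Rpl39l and Rpl3l. Of the 84 members, 30 encode 40S proteins and 46 encode 60S proteins. The other 8 carry a symbol ending in l or l1, given to paralogs and to genes named after a ribosomal protein, namely Rps27l, Rpl22l1, Rpl7l1, Rpl39l, Rpl3l, Rps4l, Rpl6l and Rpl32l. The last 3 of these, Rps4l, Rpl6l and Rpl32l, are annotated as processed pseudogenes in GENCODE M21 and are members by their symbols.

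KO cells were dendritic cells grown from bone marrow of C57BL/6 mice with the genotype CD11c-Cre;Hif2afl/fl (3 libraries), in which a Cre recombinase driven by the CD11c promoter recombines floxed Hif2a alleles. WT cells came from mice with the genotype Hif2afl/fl (3 libraries), so their Hif2a alleles were floxed too. Cultures of both genotypes had received the hydroxylase inhibitor DMOG for 24 h, which stabilises HIF α subunits, and then the glycolipid α-GalCer for 4 h, so no value below describes untreated cells. It is not stated whether libraries of 1 genotype come from different mice or cultures, so the p-values rest on a spread between libraries that may be technical. The study asked how HIF-2α shapes glycolipid priming by dendritic cells.

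Every ribosome holds a single copy of nearly all of these proteins, and their genes are usually expressed together at matched levels. Many of their mRNAs start with a C followed by a run of pyrimidines, the 5′ terminal oligopyrimidine (TOP) motif, through which the kinase mTOR and the protein LARP1 set how much of the mRNA is translated and how stable it is. In activated dendritic cells, translation rises early after stimulation and falls later. When subunits are not assembled in balance, free Rpl5 and Rpl11 bind Mdm2 together with 5S rRNA and stabilise p53.

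Start-site sequences were read to show which members carry a pyrimidine run near the annotated start. A TOP motif begins at the first base of the mRNA, so the counts below are not counts of TOP mRNAs. A run was counted as a C followed by at least 7 bases that are each C or T, on the strand of the gene and within 50 bases of the annotated start on either side. The RefSeq promoter table (build GRCm38.p6) held 62 of the 84 members, and 51 of these 62 (82.3%) had a run, against 28.7% of all 27025 promoters in that table. The windows below, given 5′ to 3′ with the run in capitals, belong to 5 of the members described first, to Rps6, and to the pair Rps27l and Rps27, whose ratio is described further on.
Rpl5 (chr5:107900502-107900529, plus strand): cagccaCTCTTTCTCacgtcgcttgcgt
Rpl36a (chrX:134585675-134585702, plus strand): ctctagCCTCTCTCTTTCCgagctgcta
Rpl38 (chr11:114668574-114668601, plus strand): ctcgttCTTTCCCCgttctcttcggttc
Rpl31 (chr1:39367827-39367854, plus strand): gccacaCCTCTTCCTCCTCgcctccccg
Rpl11 (chr4:136053358-136053385, minus strand): ggaagtCTCCCTCTCTCTTCCTgttctc
Rps6 (chr4:86857347-86857374, minus strand): gtcgggCCTCTTTTTCgtgacgcctccc
Rps27 (chr3:90213629-90213656, minus strand): ctttcgCTCCTTTCCggcggtgacgacc
Rps27l (chr9:66946058-66946085, plus strand): cctccaCTCCTCTCCactcctccccgcc

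A run was found near the start of 35 of the 43 members with a promoter entry whose mRNA fell in KO cells, and of 14 of the 16 tested members with an entry whose mRNA was not called lower. In Rpl38, Rps6 and Rps27 the run lay at the annotated start itself, with its first base at position 1, -1 or -2, where position 1 is the start. It began and ended before that start in Rpl5, Rpl31 and Rps27l, with its first base at -20, -18 and -22. In Rpl11 it began at 15 and in Rpl36a at 28. Rpl10a, Rplp0 and Rpl7l1 had none in this window. The letters CCGGAAG, read by ETS factors such as GABP, were present on either strand in 38.7% of the 62 member promoters of 300 bases and in 9.12% of all promoters. ATGGCGG was present in 16.1% of member promoters and 4.19% of all promoters. CACGTG, which Myc and Max read, was present in 8.06% of member promoters and 7.24% of all promoters, and the HIF core ACGTG, which CACGTG contains, in 27.4% of member promoters and 19.7% of all promoters. A match in a promoter is a description of the sequence only.

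The mRNAs of ribosomal proteins were lower in KO cells across both subunits. Of 81 tested members, 60 fell (74.1%) and 1 rose, at an adjusted p under 0.05 in edgeR's quasi-likelihood test over all 13249 rows, where 12.0% of rows were called lower, 13.8% higher and 25.8% either way. The decreases were small and alike, with a median log2 fold change over the 81 members of -0.30 and a middle range of -0.36 to -0.23, beside a median of -0.01 over all tested rows. Without the 3 members annotated as pseudogenes, 59 of 78 fell. In 77 of 81 members the log2 fold change was negative. In 57 members each KO library lay below each WT library, an arrangement found in 20.0% of all tested rows, and in 1 member each KO library lay above each WT library, against 20.5% of rows.

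**Figure D1:**
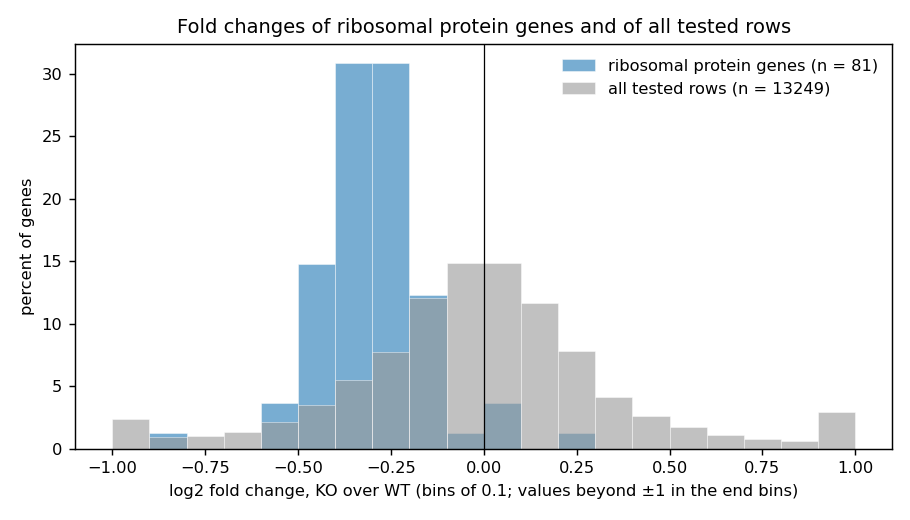
Percent of genes (vertical axis) in bins of 0.1 of the log2 fold change of KO over WT (horizontal axis), for the 81 tested ribosomal protein genes in blue and for all 13249 tested rows in grey. The ribosomal protein genes gather around a median of -0.30, while all rows centre on -0.01.

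Taken as a share of a library, the 84 members held 3.09%, 2.78% and 2.94% of the reads in KO 1, 2 and 3, against 3.58%, 3.64% and 3.21% in WT 1, 2 and 3. The genotypes did not overlap in this share, and the mean share was 2.94% ± 0.157 in KO libraries and 3.48% ± 0.230 in WT libraries (SD, n = 3 each), a ratio of 0.844. Libraries of a genotype differed from each other in the same direction for nearly all members. KO 2 was the lowest KO library for 71 of 81 members and KO 1 the highest for 69, while WT 3 was the lowest WT library for 79 and WT 2 the highest for 70. CPM, used from here on, are edgeR's counts scaled by library size and TMM factor. Set against the WT mean CPM of each gene, the median over the 81 members was -0.21, -0.39 and -0.30 on the log2 scale in KO 1, 2 and 3, and 0.03, 0.11 and -0.15 in WT 1, 2 and 3. WT 3 lay closest to the KO libraries, with KO 1 next to it.

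**Figure D2:**
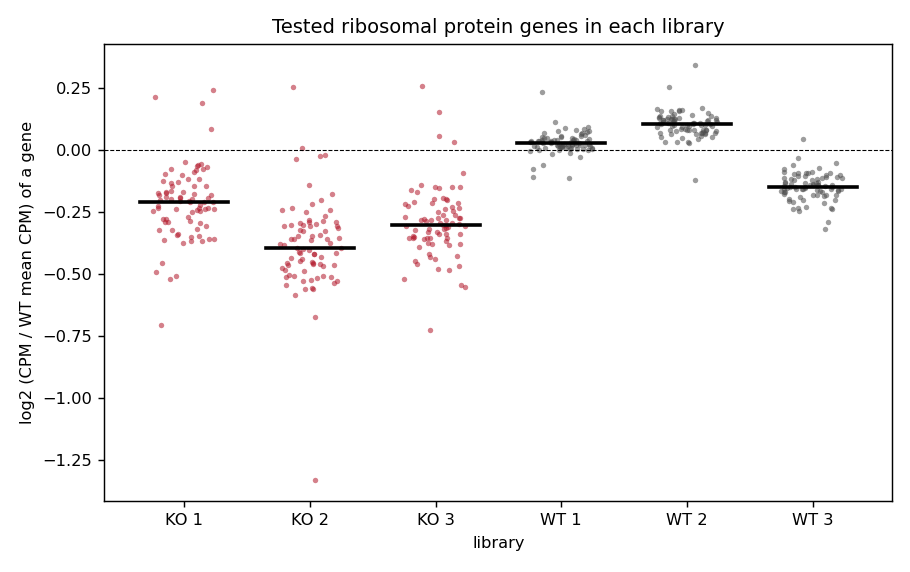
Each point is 1 of the 81 tested ribosomal protein genes in 1 library, as the log2 ratio of its CPM to the mean CPM of the 3 WT libraries (vertical axis), and the bar is the median of the library. The medians are -0.21, -0.39 and -0.30 in KO 1, 2 and 3 and 0.03, 0.11 and -0.15 in WT 1, 2 and 3.

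The count of members called lower depended on which libraries were used. It was 38 without WT 1, 38 without KO 3, 40 without WT 2 and 40 without KO 2. Calls over all tested rows were fewer in those fits too, with 6.96% to 9.47% lower, against 12.0% with all 6 libraries. The count of members was 71 without WT 3 and 68 without KO 1. The share of all tested rows called lower was under 12.0% without WT 3 and was 12.0% without KO 1. The median over the members stayed between -0.35 and -0.25 in these 6 fits. The calls of 37 members held in every fit tried. WT 2 differed from the rest in scattered reads. It had at least 1 read in 25408 rows, where the others had reads in 18763 to 22275 rows. With both WT 2 and KO 1 left out, the pair with the most such rows, 58 members were called lower. In that fit 9.78% of all tested rows were called lower.

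Epas1, the official symbol of the targeted gene Hif2a, was lower in the KO libraries, which matches their labels. It had 175, 214 and 198 reads in KO libraries, against 339, 352 and 349 reads in WT libraries, a log2 fold change of -0.98 ± 0.12 (SE, n = 3 libraries per genotype, as for all fold changes below; adjusted p = 3.45e-05, edgeR).

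Rpl5 had the largest decrease among the members called. This 60S protein (chr5:107900502-107909005, plus strand, build mm10) joins Rpl11 and 5S rRNA in the 5S particle. Its level was 446, 383 and 417 CPM in KO libraries, against 648, 641 and 544 CPM in WT libraries. All KO values lay below all WT values, and the log2 fold change was -0.56 ± 0.08 (edgeR adjusted p = 0.000185), so Rpl5 fell by 32.1%. Rpl11, its partner, had 354, 323 and 335 CPM in KO libraries, against 413, 436 and 366 CPM in WT libraries. The groups did not overlap, and the log2 fold change of Rpl11 was -0.26 ± 0.07 (edgeR adjusted p = 0.0194). The Rpl11 call was lost without WT 1, WT 2, KO 2 or KO 3, at adjusted p of 0.0786, 0.068, 0.063 and 0.0837.

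Beside Rpl5, the 8 members with the largest decreases among those called included 6 more 60S proteins and 1 40S protein. Rpl36a, a 60S protein encoded on the X chromosome, had 81.8, 79.3 and 78.9 CPM in KO libraries, against 118, 129 and 97.0 CPM in WT libraries. The KO libraries were nearly equal and all lay below WT 3, and the log2 fold change was -0.52 ± 0.08 (edgeR adjusted p = 0.000503). Rpl10a, which forms the mobile L1 stalk near the exit site for tRNA, had 273, 269 and 281 CPM in KO libraries, against 392, 409 and 364 CPM in WT libraries. Its KO libraries again spanned a narrow range well below the WT libraries, with a log2 fold change of -0.50 ± 0.07 (edgeR adjusted p = 8.71e-05). Rpl3, which reaches toward the peptidyl transferase centre, had 369, 382 and 395 CPM in KO libraries, against 525, 554 and 508 CPM in WT libraries. It did not follow the usual order among KO libraries, since KO 1 was the lowest, and its log2 change was -0.47 ± 0.06 (edgeR adjusted p = 0.000105).

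Rps4x, the 40S protein of this group and also encoded on the X chromosome, had 650, 567 and 581 CPM in KO libraries, against 852, 896 and 756 CPM in WT libraries. Each KO library lay below each WT library, and the log2 fold change was -0.48 ± 0.07 (edgeR adjusted p = 0.00037). Rpl38, whose loss alters the skeleton of Tail-short mice, changed by -0.46 ± 0.09 with values of 58.8 to 70.6 CPM in KO libraries and 76.1 to 96.2 CPM in WT libraries. Rpl23, on the face of the 60S subunit that meets the 40S subunit, changed by -0.46 ± 0.08, with 277 to 316 CPM in KO libraries and 369 to 437 CPM in WT libraries. Rpl31, at the rim of the exit tunnel, changed by -0.46 ± 0.08, with 329 to 376 CPM in KO libraries and 434 to 511 CPM in WT libraries. None of these 3 overlapped between genotypes, at edgeR adjusted p of 0.00194, 0.000677 and 0.000821, and all 8 calls held in every fit tried.

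**Figure D3:**
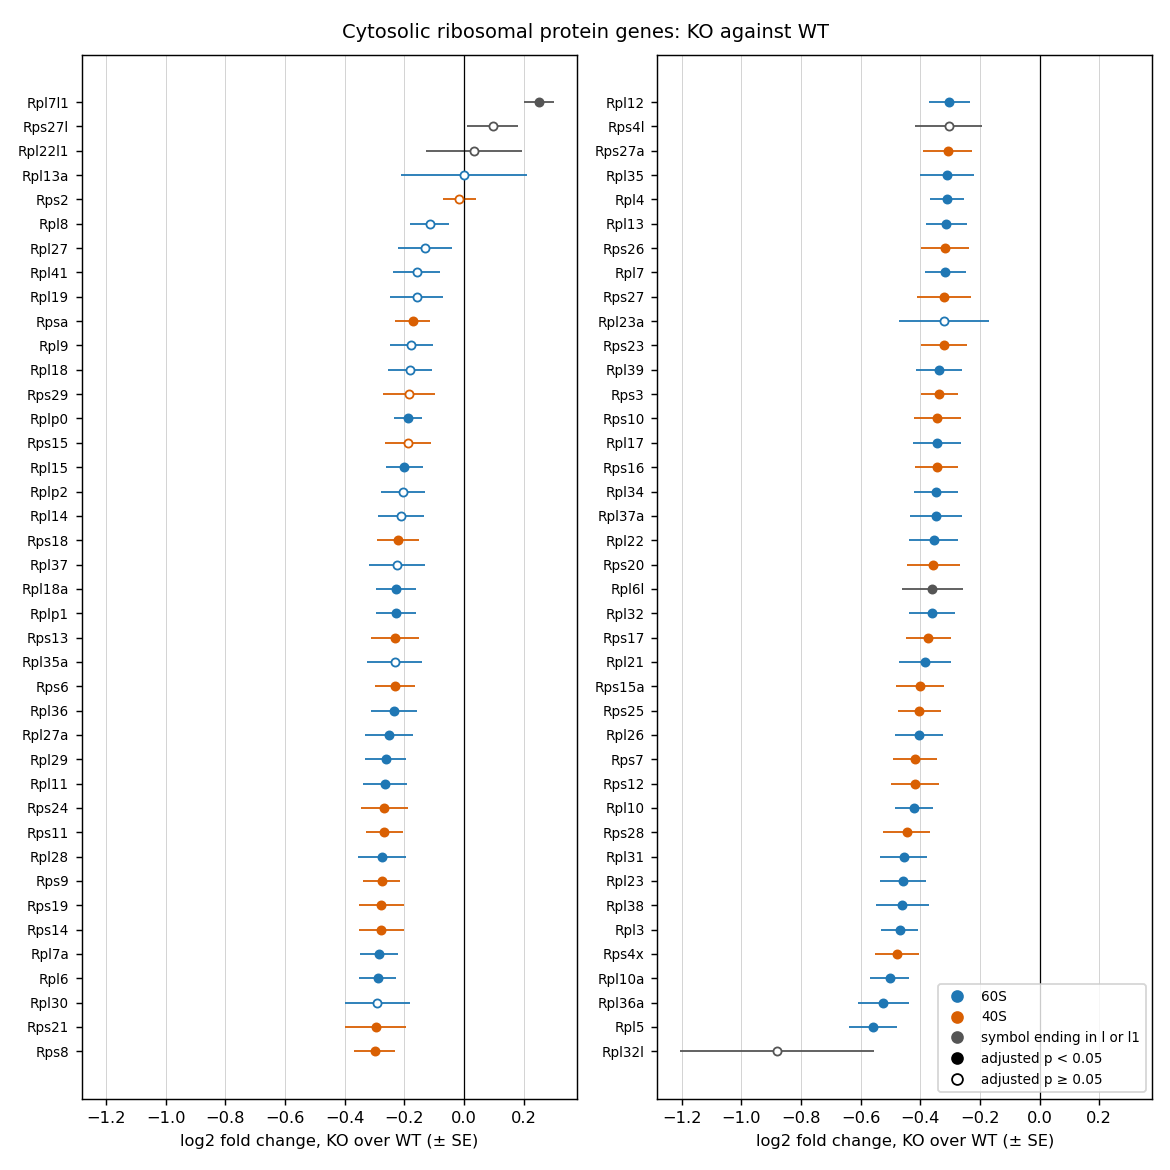
Log2 fold change of KO over WT with its SE (horizontal axis) for the tested ribosomal protein genes, 1 of which is not drawn, ordered from highest to lowest, for 60S proteins in blue, 40S proteins in orange and genes with a symbol ending in l or l1 in grey. Filled points passed an adjusted p under 0.05 in edgeR, and all of those drawn lie below 0 except that of Rpl7l1.

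The 60S subunit as a whole had 32 of 45 tested proteins called lower and none higher, with a median log2 fold change of -0.29. Of all tested rows, 12.0% were called lower and 13.8% higher. The remaining 13 proteins did not pass the test, and the lowest and highest values were -0.56 for Rpl5 and 0.0004 for Rpl13a. The 60S count was 22 without WT 1 or KO 3, and 23 without WT 2 or KO 2. In those fits 6.96% to 9.47% of all tested rows were called lower. Among the proteins around the exit tunnel, where the new peptide leaves the ribosome, 5 of 7 fell. Rpl10, which joins late in 60S maturation and reaches the site where peptidyl-tRNA sits, had 644, 607 and 620 CPM in KO libraries, against 840, 892 and 774 CPM in WT libraries. Its groups lay apart, with a log2 fold change of -0.42 ± 0.06 (edgeR adjusted p = 0.000273).

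The stalk proteins, which recruit the elongation factors to the ribosome, had fold changes nearer to 0 than the median of the members. Rplp0, the base of the stalk, had 2061, 2029 and 2133 CPM in KO libraries, against 2431, 2450 and 2204 CPM in WT libraries. The groups did not overlap, and the log2 fold change was -0.19 ± 0.05 (edgeR adjusted p = 0.0123). Rplp1, which binds the base as a pair with Rplp2, had 805, 749 and 784 CPM in KO libraries, against 944, 975 and 819 CPM in WT libraries, a log2 fold change of -0.23 ± 0.07 (edgeR adjusted p = 0.0252). Rplp2 had 277, 252 and 280 CPM in KO libraries, against 312, 332 and 287 CPM in WT libraries. It too did not overlap, but its log2 fold change of -0.20 ± 0.07 missed the threshold (edgeR adjusted p = 0.0541, and 0.0255 with DESeq2). Rplp0 lost its call without WT 1, WT 2 or KO 3, at adjusted p of 0.0907, 0.075 and 0.0523, and Rplp1 lost it without WT 1, WT 2, KO 2 or KO 3, at 0.121, 0.101, 0.0814 and 0.0995. Rplp2 passed without WT 3 (0.0275) or KO 1 (0.045).

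In the 40S subunit, 27 of 30 proteins fell and none rose, with a median log2 fold change of -0.31. Of all tested rows, 12.0% were called lower and 13.8% higher. The 40S count was 16 without WT 1 or KO 3, and 17 without WT 2 or KO 2. In those fits 6.96% to 9.47% of all tested rows were called lower. Rps2 and Rps3 sit together where mRNA enters the subunit. Rps2 had 981, 1010.0 and 1048 CPM in KO libraries, against 1037, 1059 and 974 CPM in WT libraries. The groups of Rps2 overlapped fully, and its log2 change was -0.02 ± 0.05 (edgeR adjusted p = 0.873). Rps3 had 729, 700.3 and 737 CPM in KO libraries, against 949, 947 and 839 CPM in WT libraries. Every KO value of Rps3 lay below every WT value, and its log2 change was -0.34 ± 0.06 (edgeR adjusted p = 0.00132). The difference between this pair was not tested.

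Rpsa, a 40S protein at the mRNA exit that is also known as the laminin receptor, had 1717, 1531 and 1663 CPM in KO libraries, against 1874, 1949 and 1706 CPM in WT libraries. WT 3 lay below KO 1, and the log2 fold change of -0.17 ± 0.06 passed only narrowly (edgeR adjusted p = 0.0474). The Rpsa call was lost without WT 1, WT 2, KO 2 or KO 3, at adjusted p of 0.175, 0.199, 0.171 and 0.14, and with DESeq2 (0.0544), scaling by total reads only (0.0941) or no filter on low counts (0.0876). Rps6, the substrate of the S6 kinases, had 534, 501 and 531 CPM in KO libraries, against 633, 646 and 560 CPM in WT libraries. Its groups did not overlap, with a log2 fold change of -0.23 ± 0.07 (edgeR adjusted p = 0.0216), which was lost without WT 1, WT 2, KO 2 or KO 3, at 0.106, 0.0731, 0.074 and 0.0769. Rps27a is made as a fusion with ubiquitin, which is cut off. Its level was 341, 290 and 315 CPM in KO libraries, against 391, 427 and 355 CPM in WT libraries. The groups lay apart, and the log2 fold change was -0.31 ± 0.08 (edgeR adjusted p = 0.0138), lost without WT 2, KO 2 or KO 3 at 0.0544, 0.0525 and 0.0633.

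Ribosomal proteins whose loss of 1 allele causes Diamond-Blackfan anaemia in humans followed the other members. Of the 10 on that list, 9 fell and Rpl35a did not pass the test (-0.23 ± 0.09, edgeR adjusted p = 0.0792). Among all 75 tested members whose symbol does not end in l or l1, 59 fell, and 12.0% of all tested rows were called lower. The median log2 fold change of the 10 was -0.33. Rps19, the protein most often mutated in that disease, had 445, 385 and 413 CPM in KO libraries, against 522, 531 and 453 CPM in WT libraries. The KO libraries lay below the WT libraries with little room between KO 1 and WT 3, and the log2 fold change was -0.28 ± 0.08 (edgeR adjusted p = 0.0179). Without WT 1 or KO 3, 5 of the 10 were called lower, in fits where 7.58% and 6.96% of all tested rows were called lower. Rps19 missed the threshold without WT 1, WT 2, KO 2 or KO 3, at edgeR adjusted p of 0.0867, 0.0627, 0.0668 and 0.0802.

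Of the 6 tested genes with a symbol ending in l or l1, Rpl7l1 rose, Rpl6l fell and 4 did not pass the test. Rpl7l1, named for its likeness to Rpl7, had 102, 103 and 103 CPM in KO libraries, against 86.1, 87.9 and 84.2 CPM in WT libraries. All KO values lay above all WT values with little spread within either genotype, and the log2 fold change was 0.25 ± 0.05 (edgeR adjusted p = 0.00273). Rpl7, a 60S protein, had 625, 549 and 594 CPM in KO libraries, against 751, 774 and 676 CPM in WT libraries, a log2 fold change of -0.32 ± 0.07 (edgeR adjusted p = 0.00444). Within each library, reads of Rpl7l1 amounted to 16.3%, 18.7% and 17.3% of those of Rpl7 in KO 1, 2 and 3, against 11.5%, 11.4% and 12.4% in WT 1, 2 and 3. The log2 ratio was higher by 0.57 in KO libraries (p = 0.1 in a 2-sided exact permutation test, the smallest that 3 against 3 libraries can give, and 0.125 adjusted over the 5 pairs tested).

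Rps27l, a p53 target that can take the place of Rps27 in the 40S subunit, had 158, 137 and 142 CPM in KO libraries, against 139, 152 and 119 CPM in WT libraries. The groups overlapped, and its log2 fold change of 0.10 ± 0.09 did not pass the test (edgeR adjusted p = 0.452). Rps27 itself had 137, 113 and 122 CPM in KO libraries, against 157, 173 and 134 CPM in WT libraries, a log2 fold change of -0.32 ± 0.09 (edgeR adjusted p = 0.0204). KO 1 lay above WT 3, and the Rps27 call was lost without WT 1, WT 2, KO 2 or KO 3, at 0.0703, 0.114, 0.0668 and 0.0892. The ratio of the pair varied little within a genotype. Rps27l had 115%, 122% and 117% of the reads of Rps27 in KO 1, 2 and 3, against 88.1%, 87.9% and 88.2% in WT 1, 2 and 3. Rps27l thus had more reads than Rps27 in KO libraries and fewer in WT libraries. The log2 ratio was higher by 0.42 in KO libraries (exact permutation p = 0.1, the smallest possible, and 0.125 adjusted). Most of this difference was the fall of Rps27 (-0.32), beside 0.10 for Rps27l. With counts corrected for trends with GC content and exon length, Rps27l itself was called higher, at 0.25 ± 0.06 (edgeR adjusted p = 0.00451).

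The coding sequences of this pair are shown because the ratio rests on telling their reads apart. Both coding sequences have 252 bases, and they differ at 60 positions, given in capitals, for an identity of 76.2%. Of the 203 stretches of 50 bases in Rps27l, 0 occur in Rps27. All of those of Rps27 (100%) and 48.3% of those of Rps27l occur in some other annotated gene, so both counts also depend on how such reads were assigned. The gene Rps27rt shares stretches with Rps27 and had 901, 606 and 699 reads in KO libraries, against 887, 870 and 696 reads in WT libraries. With its reads added to those of Rps27, Rps27l had 84.7%, 92.3% and 87.4% of their sum in KO libraries, against 66.0%, 66.4% and 65.2% in WT libraries. Rps27l then lay below the sum in all 6 libraries, and the log2 ratio was higher by 0.42 in KO libraries (exact permutation p = 0.1). The 5′ to 3′ coding sequences are those of the GENCODE M21 transcripts of Rps27l (chr9:66946086-66949516, plus strand, mm10) and Rps27 (chr3:90212522-90213651, minus strand).
Rps27l: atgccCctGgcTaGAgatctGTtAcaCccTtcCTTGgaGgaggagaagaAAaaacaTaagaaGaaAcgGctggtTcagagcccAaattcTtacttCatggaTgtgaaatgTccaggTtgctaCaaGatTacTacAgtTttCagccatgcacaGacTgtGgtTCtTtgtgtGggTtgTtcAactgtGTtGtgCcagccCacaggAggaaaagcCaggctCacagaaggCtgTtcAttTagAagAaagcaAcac
Rps27: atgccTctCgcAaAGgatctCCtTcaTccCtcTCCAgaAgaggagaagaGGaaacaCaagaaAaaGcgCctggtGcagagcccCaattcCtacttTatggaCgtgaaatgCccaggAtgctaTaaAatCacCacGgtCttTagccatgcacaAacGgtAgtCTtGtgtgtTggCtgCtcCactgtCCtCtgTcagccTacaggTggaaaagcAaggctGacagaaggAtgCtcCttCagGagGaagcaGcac

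**Figure D4:**
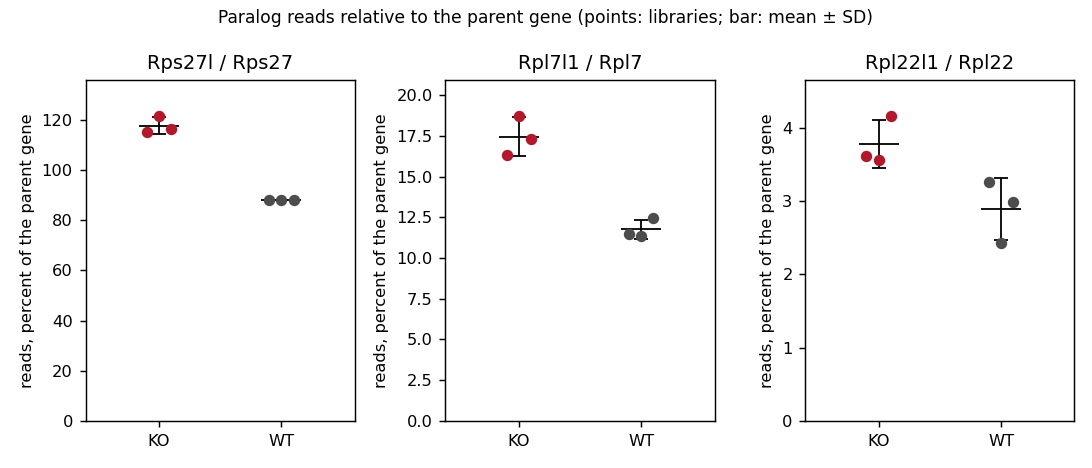
Reads of Rps27l, Rpl7l1 and Rpl22l1 as a percent of the reads of Rps27, Rpl7 and Rpl22 in the same library (vertical axes, from 0), for KO on the left and WT on the right, with points for libraries and bars for the mean ± SD. In each panel the 3 KO libraries lie above the 3 WT libraries. Rps27, Rpl7 and Rpl22 were each called lower in KO cells, which by itself raises these percents.

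Rpl22l1, whose mRNA is held down by Rpl22 protein in mouse cells, was low, with 105, 83 and 104 reads in KO libraries, against 108, 77 and 72 reads in WT libraries. Its groups overlapped and its log2 change was 0.03 ± 0.16 (edgeR adjusted p = 0.909), while that of Rpl22 was -0.36 ± 0.08 (edgeR adjusted p = 0.00709). Reads of Rpl22l1 were 3.62%, 3.56% and 4.16% of those of Rpl22 in KO libraries, against 3.26%, 2.43% and 2.98% in WT libraries. The log2 ratio was higher by 0.39 (exact permutation p = 0.1, 0.125 adjusted), mostly through the fall of Rpl22. Rps4l reads were 1.73%, 1.64% and 1.82% of those of Rps4x in KO libraries and 1.43%, 1.46% and 1.75% in WT libraries. These overlapped, with a difference of 0.17 in the log2 ratio (exact permutation p = 0.3) that was 0.26 without WT 3 and 0.11 without WT 1, and the log2 fold change of Rps4l alone was -0.31 ± 0.11 (edgeR adjusted p = 0.0599, and 0.04 without KO 1).

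The remaining pairs rest on few reads. Rpl36al, which lies outside the name rule, had 27, 10 and 15 reads in KO libraries, against 11, 14 and 3 reads in WT libraries. Its log2 ratio to Rpl36a was higher by 1.34 (exact permutation p = 0.1, 0.125 adjusted), and the difference was 0.87 without WT 3. Rpl39l had 0 to 6 reads in KO libraries and 3 to 5 in WT libraries, and Rpl3l had 3 to 12 reads in KO libraries and 1 to 8 in WT libraries, too few for a test. Rpl6l, annotated as a processed pseudogene, shares 76.4% of its 50-base stretches with other genes, Rpl6 among them. Its row fell by 0.36 on the log2 scale (SE 0.10, edgeR adjusted p = 0.02), and lost its call without WT 1, WT 2, KO 2 or KO 3, at 0.0929, 0.082, 0.0689 and 0.0689. Rpl32l had the lowest fold change of all tested members, -0.88 ± 0.32, but on 15, 9 and 14 reads in KO libraries, against 21, 23 and 19 reads in WT libraries, and did not pass (edgeR adjusted p = 0.0632).

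Ribosomal proteins that the name rule does not take gave like values. Fau, which encodes the 40S protein eS30 fused to a ubiquitin-like protein, had 758, 658 and 727 CPM in KO libraries, against 893, 926 and 774 CPM in WT libraries. The log2 change of Fau was -0.27 ± 0.07 (edgeR adjusted p = 0.0161), and it missed the threshold without WT 1, WT 2, KO 2 or KO 3, at 0.0799, 0.0687, 0.0627 and 0.0649. Rack1, the scaffold protein on the 40S head, fell by 0.28 on the log2 scale (SE 0.06, edgeR adjusted p = 0.00518). Rps3a1 fell by 0.39 (SE 0.07, edgeR adjusted p = 0.00161).

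How much of a gene its row holds differed between members. Ribosomal protein genes have many processed pseudogenes, and a median of 93% of the 50-base stretches of a member's coding sequence also occur in another annotated gene, over the 75 tested members outside the l and l1 group. Reads of such stretches cannot be assigned by sequence alone, and how the authors counted them is not given in the sources used here, so the level of a single member is uncertain. Rpl24 had 0 to 5 reads per library and Rpl13a 39 to 69, where Rplp0 of the same subunit had at least 32326. Exons of Rpl24 also overlap the gene Gm28037, and those of Rpl13a the gene Gm45713, on the same strand. Whether shared stretches or these overlaps account for the low counts was not tested. Rpl23a had 154, 112 and 133 reads in KO libraries, against 154, 175 and 118 reads in WT libraries, while the pseudogene row Gm3362 had 458, 472 and 439 reads in KO libraries, against 637, 628 and 441 in WT libraries. Rpl23a did not pass the test (-0.32 ± 0.15, edgeR adjusted p = 0.141).

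The decrease was seen in members with and without such copies. Outside the l and l1 group, 43 tested members had at least 90% of their stretches shared and 35 of them fell, with a median log2 fold change of -0.31. Of the 3 outside that group with under 20% shared, 2 fell. Rps3 was among them, with the values given above, and Rpl8 did not pass, at -0.12 ± 0.07 (edgeR adjusted p = 0.225). Rps4l, of the l and l1 group, also had under 20% shared and did not pass. Rows named as pseudogenes of a member numbered 176, of which 68 were tested. Of these 68 rows 19 were called lower (27.9%) and 0 higher, with a median of -0.30. Over all tested rows, 12.0% were called lower and 13.8% higher. With the reads of the pseudogene rows added to their members, 63 members were called lower and the median was -0.31.

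Per length of annotated exons, member levels spanned a wide range. Rplp1 was highest at 1695 CPM per kb over the 6 libraries, followed by Rplp0 at 1337 and Rps15 at 757. The libraries of Rplp1 ran from 1500.0 to 1613 CPM per kb in KO cells and from 1640.0 to 1953 in WT cells, and those of Rplp0 from 1223 to 1285 in KO cells and from 1329 to 1477 in WT cells, so this pair of genes did not overlap. Rps15, a 40S protein, lay well below both, at 658 to 740.3 CPM per kb in KO cells and 719 to 873 in WT cells. The log2 fold change of Rps15 did not pass, at -0.19 ± 0.08 (edgeR adjusted p = 0.0967, and 0.0224 without WT 3). The lowest tested members were Rpl22l1, Rpl32l and Rpl13a, at 2.76, 2.59 and 1.57 CPM per kb. With the shortest transcript of the principal coding sequence as the length, Rplp1 and Rplp0 stayed highest and Rps15 had rank 8.

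Position and composition of the genes were set beside the fold changes. The 4 members on the X chromosome, Rpl10, Rpl36a, Rpl39 and Rps4x, all fell, with a median log2 fold change of -0.45, where 14.7% of the 415 tested rows on that chromosome were called lower and their median was -0.04. Across the 75 tested members outside the l and l1 group, the log2 fold change had a Spearman correlation of 0.42 with the GC content of the exons, so members richer in GC had fold changes nearer to 0. The same correlation was 0.15 with mean CPM, 0.07 with transcript length and -0.12 with the share of stretches found elsewhere. These are descriptions across genes that share the same 6 libraries. With counts corrected for trends with GC content and exon length, 61 members were called lower and the median was -0.26.

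Other mRNAs of the translation machinery were examined next to the ribosomal proteins. Of 18 genes outside the ribosome whose mRNAs are known for a TOP motif, most of them translation factors, 11 fell (61.1%) and 0 rose. Over all tested rows, 12.0% were called lower and 13.8% higher. The median log2 fold change of the 18 genes was -0.21. Vim, the intermediate filament vimentin, had 2756, 2782 and 2840.0 CPM in KO libraries, against 3995, 4054 and 3862 CPM in WT libraries. That is a log2 fold change of -0.51 ± 0.04 (edgeR adjusted p = 2.76e-07) with no overlap. Eef1a1, the factor that brings aminoacyl-tRNA to the ribosome, had 4961, 4868 and 4899 CPM in KO libraries, against 6264, 6196 and 5962 CPM in WT libraries, a log2 fold change of -0.32 ± 0.03 (edgeR adjusted p = 5.05e-06). Eif3e, an initiation factor subunit, changed by -0.41 ± 0.06 and Npm1, a nucleolar chaperone, by -0.39 ± 0.07 (edgeR adjusted p = 0.000152 and 0.000802).

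Of 41 ribosome biogenesis genes, which make and process rRNA and assemble the subunits, 8 rose (19.5%) and 3 fell (7.32%), with a median of 0.15, beside 13.8% higher and 12.0% lower over all tested rows. Bop1, needed for maturation of 60S rRNA, had 50.1, 52.5 and 54.0 CPM in KO libraries, against 38.3, 36.6 and 36.8 CPM in WT libraries, a log2 fold change of 0.49 ± 0.07 (edgeR adjusted p = 0.000107). Heatr1, a factor of early rRNA processing, changed by 0.44 ± 0.07, Polr1a, the large subunit of RNA polymerase I, by 0.37 ± 0.08, and Noc2l, a nucleolar protein, by 0.25 ± 0.06 (edgeR adjusted p = 0.000678, 0.00373 and 0.0066). The count of those higher was 4 without WT 1 and 5 without KO 3, and that of those lower 0 and 1. Mitochondrial ribosomal proteins, made from nuclear genes but used in another ribosome, gave 3 higher (3.9%) and 2 lower (2.6%) of 77, both below the shares over all tested rows, with a median of 0.04. Mrps2 (0.34 ± 0.08) and Mrpl55 (0.35 ± 0.10) were among the higher ones, and Mrps33 (-0.28 ± 0.09) and Mrpl24 (-0.21 ± 0.07) were the lower ones. Those counts were 1 and 0 without WT 1 or KO 3, and 6 and 0 when libraries were scaled by total reads only.

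**Figure D5:**
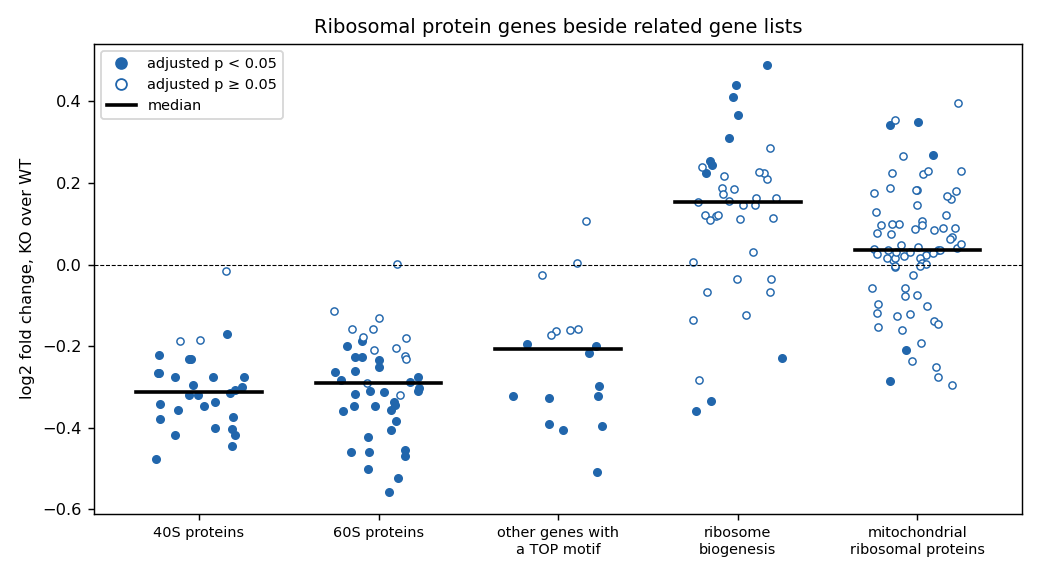
Log2 fold change of KO over WT (vertical axis) of each tested gene in 5 lists, with the median as a bar and filled points for an adjusted p under 0.05 in edgeR. The 40S and 60S proteins have medians of -0.31 and -0.29, other genes with a TOP motif -0.21, ribosome biogenesis genes 0.15 and mitochondrial ribosomal proteins 0.04.

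Genes that control the synthesis of ribosomal proteins were called in both directions, 6 higher (28.6%) and 4 lower (19.0%) of 21, beside 13.8% and 12.0% over all tested rows. Mtor, the kinase that governs translation of TOP mRNAs, had 81.4, 97.3 and 92.6 CPM in KO libraries, against 60.4, 59.5 and 70.5 CPM in WT libraries, with a log2 fold change of 0.51 ± 0.08 (edgeR adjusted p = 0.000425). Larp1, which binds TOP mRNAs, changed by 0.41 ± 0.07, and Max, the partner of Myc, by 0.33 ± 0.05 (edgeR adjusted p = 0.00134 and 0.000483). Eif4ebp1, the repressor of cap-dependent initiation that mTOR phosphorylates, changed by -0.53 ± 0.07 (edgeR adjusted p = 0.000131). Without WT 2, KO 2 or KO 3, 2 genes of this list were lower. Of 8 tested snoRNA host genes, which carry TOP motifs in several cases, Zfas1 rose (0.29 ± 0.09, edgeR adjusted p = 0.0244) and Gas5 fell (-0.40 ± 0.13, edgeR adjusted p = 0.0385). These shares of 12.5% each way are near the 13.8% and 12.0% of all tested rows. Gas5 overlapped between genotypes. Zfas1 lost its call without WT 1, WT 2, WT 3, KO 1 or KO 3, at 0.0512, 0.0539, 0.0651, 0.058 and 0.104, and Gas5 without WT 1, WT 2, KO 2 or KO 3, at 0.14, 0.12, 0.117 and 0.158.

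Of 13 tested p53 target genes, a list that does not include Rps27l, 5 rose (38.5%) and 1 fell (7.69%), with a median of 0.12, beside 13.8% and 12.0% of all tested rows. Btg2, an antiproliferative factor, had 110.0, 92.2 and 98.6 CPM in KO libraries, against 62.0, 58.8 and 61.4 CPM in WT libraries, with a log2 fold change of 0.72 ± 0.07 (edgeR adjusted p = 4.61e-06). Cdkn1a, the cell cycle inhibitor p21, changed by 0.43 ± 0.06, Aen, a nuclease, by 0.50 ± 0.11 and Sesn1, a stress sensor upstream of mTOR, by -0.31 ± 0.07 (edgeR adjusted p = 0.00018, 0.00456 and 0.00597). Mdm2, the regulator of p53 that Rpl5 and Rpl11 bind, did not pass (0.10 ± 0.06, edgeR adjusted p = 0.276).

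Markers of the cultured cells and of other cell types were summed beside these results. Dendritic cell markers summed to 6874 to 7446 CPM in KO libraries and 7356 to 7480 CPM in WT libraries. Of 12 tested dendritic cell markers, 5 were called higher and 3 lower, so the like sums hold changes in both directions. Ccr7, the receptor for homing to lymph nodes, had 2317, 1761 and 2008 CPM in KO libraries, against 1456, 1364 and 1328 CPM in WT libraries. H2-Ab1, an MHC class II chain, had 1008, 1015 and 1025 CPM in KO libraries, against 1412, 1442 and 1430 CPM in WT libraries. Macrophage markers summed to 3698 to 4212 CPM in KO libraries and 3580.0 to 3806 CPM in WT libraries, with 5 of 10 macrophage markers called higher. The list for plasmacytoid dendritic cells summed to 314 to 327 CPM in KO libraries and 129 to 160 CPM in WT libraries, with 2 of 6 genes tested and both higher. Of that list, Bst2 held 287 to 295 CPM in KO libraries and 106 to 137 CPM in WT libraries, while the defining marker Siglech was at most 0.116 CPM in KO libraries and 0.130 CPM in WT libraries. Mast cell and basophil markers summed to 80.9 to 87.2 CPM in KO libraries and 50.1 to 56.7 CPM in WT libraries, with 3 of 4 tested of 7 called higher. Of that sum, Kit held 71.6 to 77.2 CPM in KO libraries and 45.5 to 50.9 CPM in WT libraries, while the defining markers Cpa3 and Fcer1a were at most 1.28 and 0.0592 CPM in KO libraries and 0.532 and 0.0647 CPM in WT libraries. Neutrophil markers summed to 43.9 to 64.5 CPM in KO libraries and 38.6 to 53.4 CPM in WT libraries, stroma markers to 11.3 to 12.9 CPM in KO libraries and 8.66 to 15.2 CPM in WT libraries, and the B cell, T and NK cell, and erythroid lists to at most 2.43 CPM in any library. Mitochondrially encoded RNAs held 2.04%, 2.04% and 2.02% of the reads in KO 1, 2 and 3, against 2.24%, 2.42% and 2.17% in WT 1, 2 and 3. The part of the cell mixture or of the mitochondrial share in the lower ribosomal protein mRNAs was not tested, and in these bulk cultures fewer cells of a type and less RNA per cell cannot be told apart.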

How the data were processed

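The values deposited by the authors are raw counts of reads for each gene symbol, 1 table for 6 libraries, not normalized. The submitters' processing notes name mm10 as the build and list HTSeq, SAMtools, DESeq2, TopHat2, HISAT and HISAT2. RNA was total RNA taken with Trizol, per the labels' protocols. No source used here gives the annotation, whether counting used strand, or what was done with multiply aligned reads, so reads of antisense or near-identical genes may be mixed.

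Totals ran from 14668641 to 17884160 counts per library. Of 30587 rows, filterByExpr (minimum count 10) kept 13249, which were scaled with TMM and tested with edgeR 4.0.16 (quasi-likelihood F test, genotype only, R 4.3.3). P-values were adjusted by Benjamini-Hochberg over all tested rows and called at 0.05. The SE is the log2 fold change divided by the square root of F, and the common biological coefficient of variation was 8.48%. CPM are edgeR's counts scaled by library size and TMM factor, given per library. Paralog ratios used counts + 0.5 and a 2-sided exact permutation test. The procedure was tested on simulated data. No library repeats another, since the lowest chi-square per degree of freedom between replicates was 3.90.

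All 84 members matched the GENCODE M21 annotation of mm10 by symbol, which gave coordinates, lengths and the coding sequences searched for shared 50-base stretches. For 23 repeated symbols, the row with most counts kept the symbol. The other rows of these symbols stayed in the table under altered names and were filtered, scaled and tested like the rest.

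Members and lists were chosen with earlier results of these data known. The text names both genes of each paralog pair, the 8 called members with the largest change in each direction, the 3 highest and 3 lowest per kb, stalk and 5S particle members, Rpsa, Rps6, Rps27a, Epas1 and up to 4 called genes of each other list by lowest p. Other genes named, such as Rps2, Rps3, Rpl10, Rps19 and Mdm2, were chosen after their values were seen. A few single-gene values are not reported here.

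Alternatives were DESeq2 size factors, total reads only, TMM without ribosomal protein rows, no filter, the DESeq2 1.42.0 Wald test, limma-voom (3.58.1), the replicate number as a block, offsets for GC content and exon length (mgcv 1.9.3), each library left out, WT 2 and KO 1 left out, and pseudogene rows added. A length from the shortest principal transcript, and Rps27rt reads added to Rps27, were tried after seeing the data.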

Additional observations from a re-analysis of the deposited data

How the results depend on the processing

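The number of members called lower was 53 to 63 under the alternatives that kept all 6 libraries and 58 without WT 2 and KO 1, and it ran from 38 (without WT 1 or KO 3) to 71 (without WT 3) when 1 library was left out. Over all tested rows, 6.96% (without KO 3) to 12.0% (without KO 1) were called lower when 1 library was left out. At least 76 members had a negative fold change in every fit. The number called higher was 2 with offsets for GC content and exon length, and 2 with the replicate block added to them, Rps27l being the second. The median log2 fold change stayed between -0.35 and -0.25. With the replicate number as a block, 59 members were called lower, 58 of them also called without it, while Rpsa (adjusted p = 0.057) and Rpl15 (0.0502) lost their calls. Same-numbered libraries did not deviate together (correlations of 0.015, -0.11 and 0.08), so the numbers were not used as pairs. Among the fold changes of 109 genes under 17 alternatives, 1668 kept their side of the threshold, 144 no longer passed it, 41 newly passed it and 0 changed sign while called. The share difference of -0.54 percentage points ranged from -0.67 to -0.46 without 1 library, and the paralog ratios kept their direction. Levels per kb depend on the transcript length used. Tested members with few reads (Rpl13a, Rpl23a, Rpl32l, Rpl22l1) carry the widest errors, and Rpl24 had too few reads to be tested. Groups of 3 cannot give an exact p under 0.1.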
